A study of Mus musculus with 2 samples.

Results

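C-type lectin receptors are surface proteins with a carbohydrate-binding type of fold, by which dendritic cells, monocytes and neutrophils take up antigen and sense microbes and dying cells. A set of 10 such genes was followed here in spleen cells of allergic mice: Clec4a4, which encodes DCIR2, its relatives Clec4a1, Clec4a2 and Clec4a3, Ly75, which encodes CD205, and Clec9a, Cd209a, Clec10a, Clec7a and Clec12a. They were chosen by name, because antibody fusion proteins against DCIR2 and CD205 carry antigen into dendritic cells in this study, and because the others are known lectin receptors of the same cells. Of the 10 genes, 9 have a row among the 32285 genes of the table used. Clec7a, the β-glucan receptor dectin-1, has no row there, carries the type polymorphic pseudogene in the GENCODE M21 annotation of GRCm38 (chr6:129461591-129472779, minus strand) and was not analysed here.

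The cells came from wild-type C57BL/6 mice, 8 weeks old, all made allergic to ovalbumin (OVA) by sensitization on days 0 and 10. A first group stayed without therapy. A second had Standard desensitization, with OVA in PBS on days 20, 22 and 24 and OVA in Alum on days 40 and 60. Another received DCIR2-Fp, a fusion of OVA with an antibody against DCIR2, on days 20, 22 and 24. On day 80 all mice were challenged with OVA, and their spleen cells were then stimulated for 3 h with PMA and ionomycin, sorted for CD45 into CD11b- and CD11b+ cells, mixed in equal parts and sequenced as 1 pool by the 10x 3′ method, with 4 antibody hashtags (numbers 9 to 12) to mark the samples. The sources used here pair no hashtag with a condition, so that conditions were not compared. No unstimulated cells were in the pool.

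The matrix held 137010302 unique molecular identifiers (UMIs, counted RNA molecules) in 16829 barcodes, of which 16325 cells were kept, with a median of 6474 UMIs. Cells were assigned by gates on a few marker genes. The rule named 7 of them (cDC2, cDC1, mature dendritic cells, monocytes, neutrophils, B cells, T cells), and 5 were added (NK cells, plasmacytoid dendritic cells, macrophages, basophils, granulocyte progenitors). Together they held 10219 cells, and 725 cells passed more than 1 gate. Levels are UMIs per 1000000 UMIs counted in the cells of a gate (CPM). The range in parentheses after a level is its exact Poisson interval at 95%, and after a share of cells the exact Clopper-Pearson one. With 1 pool there was no replicate and no test, and all intervals cover counting error only. The differences between gates describe this pool and not the conditions or mice.

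The gates were checked against markers they did not use. The mature dendritic cell gate (65 cells, at least 2 UMIs of Fscn1 and Cacnb3 together) had 6 of 7 markers at least 2-fold above the other cells, led by Ccl22 at 1241 CPM. The neutrophil gate (161 cells) had 8 of 8, but also 4 of 4 progenitor and 4 of 8 monocyte markers. The progenitor gate (81 cells) had 4 of 4 of its own, but also 7 of 8 neutrophil and 5 of 5 basophil markers. Of its cells 71 passed another gate, so the neutrophil and progenitor gates are not distinct classes. The cDC2 gate (95 cells with Itgax, Sirpa and at least 3 UMIs of H2-Aa) had only 2 of 7, Flt3 at 26.9 CPM and Zbtb46 at 123 CPM, while Dtx1 was at 0 and Esam at 0.571 CPM. Irf4 was below the other cells, at 225 against 414 CPM. Markers of other types were higher more often in this gate. These were 6 of 8 of the monocyte, 5 of 6 of the macrophage, 4 of 7 of the mature dendritic cell and 4 of 8 of the cDC1 list. The rule set no minimum of UMIs, and 1 UMI in this gate is 0.571 CPM, so 1 UMI could pass for a gene rare elsewhere. The cDC1 gate (42 cells with Xcr1) had 3 of 8. Among these Cadm1 reached 389 CPM, whereas Tlr3 and Itgae were at 0, and 2 of 7 cDC2 markers were higher too. The pair is therefore called the Sirpa gate and the Xcr1 gate from here on, and neither is taken as a pure dendritic cell class. The macrophage gate (7 cells) had 2 of 6 macrophage markers higher, with Vcam1, Cd5l and Mertk at 0, and 4 of 8 monocyte markers. All 7 cells passed another gate, 6 of them the monocyte gate, so macrophage is only the name of this gate. The monocyte gate (615 cells) had 6 of 8 monocyte markers higher, among them Lyz2, which was found in 258 of its cells. It also had 4 of 4 progenitor, 5 of 6 macrophage and 3 of 8 cDC1 markers higher. Of the monocyte gate cells 328 passed another gate, so this gate is not taken as a pure monocyte class either. Lymphocyte transcripts ran through the Sirpa and Xcr1 gates, and through the mature and monocyte gates. Of the 95 Sirpa gate cells 55 held a UMI of a B, T or NK cell gene (Cd79a, Cd3d, Trac, Ncr1, Klre1 or Klrb1c), 33 passed the NK gate, 41 passed the monocyte gate and 31 were called doublets by Scrublet. Of the 42 Xcr1 gate cells 21 held such a UMI, 11 passed the NK gate and 8 were called doublets. The mature gate had such a UMI in 30 of 65 cells and the monocyte gate in 339 of 615, and 13 and 177 cells passed the NK gate. Scrublet called 9 cells of the mature gate and 92 of the monocyte gate doublets. A call for 2 or more hashtags was made for 38.9% of Sirpa gate cells and 41.5% of mature gate cells. It was made for 19.0% in the Xcr1 gate, 26.0% in the monocyte gate and 26.4% in the B gate. The summed level of the NK markers Gzma, Prf1, Eomes and Klrk1 was 1527 CPM in the Sirpa gate and 1265 CPM in the Xcr1 gate. It was 1224 CPM in the mature gate and 1255 CPM in the monocyte gate, against 6348 CPM in the NK gate, and none of the 4 was at 0. How much of each level came from such mixed droplets was not tested. For most genes, levels in cells without any of the 6 lymphocyte gene UMIs are given beside those over all cells of a gate.

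The 4 Clec4a genes lie in a row on chromosome 6 (GRCm38, plus strand), in the order Clec4a1 (chr6:122921848-122934619), Clec4a3 (chr6:122952515-122969875), Clec4a4 (chr6:122990367-123024105) and Clec4a2 (chr6:123106428-123143999). They are products of gene duplication, so that a short read could fit more than 1 of them. In the last 600 bases of the annotated transcripts, where 3′ reads are expected, windows of 90 bases (the read length) were sought in other genes. Of Clec4a4, 0 of 511 stood letter for letter in another gene, and likewise 0 of 511 for Clec4a1 and 0 of 840 for Clec4a3. For Clec4a2 74 of 2057 windows were shared, all with Clec4a4, and they lay outside the last 600 bases of the Clec4a4 transcript. Clec10a shared 111 of 2049 windows with its neighbour Mgl2. Clec9a shared 3 of 1516 with Clec1b, and Ly75, Cd209a and Clec12a none.

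Clec4a4, the target of the fusion protein, was rare in the counts of the pool. Its product DCIR2 is an endocytic receptor of mouse splenic cDC2 with an inhibitory motif (ITIM) in its cytoplasmic tail. Only 22 UMIs were counted in 16 of the 16325 cells, and 13 of these cells had a single UMI. The annotated transcript of Clec4a4 is short, with 687 windows of 90 bases over its whole length, against 1469 for Clec4a1. Whether reads past its annotated end went uncounted was not tested. In the Sirpa gate 2 UMIs in 2 cells gave 1.14 CPM (0.138 to 4.13), a share of 2.11% (0.256 to 7.40) of the cells at a median of 15341 UMIs, against 0.0356% in the B gate at a median of 10431. The monocyte gate had 9 UMIs or 1.08 CPM (0.494 to 2.05), 5 of them in 1 cell, and the Xcr1 and mature gates had 0, which allows up to 5.48 and 4.12 CPM. The interval of the Sirpa gate spans the level of the monocyte gate, so the order of both could not be read at this depth. No Sirpa gate cell without a lymphocyte gene UMI held Clec4a4 (0 of 40 cells, up to 8.13 CPM).

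The cells with Clec4a4 were of several kinds. Of the 16, 11 held H2-Aa, 10 Itgax, 6 Sirpa, 4 Flt3 and 5 Lyz2, which was 68.8%, 62.5%, 37.5%, 25% and 31.2%. Over all cells kept the shares were 48.6%, 12.9%, 4.29%, 1.89% and 5.42%. Lymphocyte genes were found too, Trac in 6 of the 16 (37.5%), Ncr1 in 3 (18.8%) and Cd79a in 1 (6.25%). Their shares over all cells kept were 21.2%, 30.1% and 17.5%. The Sirpa gate cells held 1 and 4 UMIs of Trac. Scrublet called 4 of the 16 doublets, against 8.18% of all cells kept. How many of the 16 were mixed droplets was not tested. The median was 16165.5 UMIs in the 16 cells and 6474 in all cells kept, and the part of depth was not tested. The richest cell, with 5 UMIs of Clec4a4 among 27743, passed the monocyte gate. It also held 121 UMIs of H2-Aa, 4 of Flt3, 29 of Ly75, 5 of Clec4a1 and 2 of Trac. Another cell with 1 UMI passed the neutrophil gate and held 39 UMIs of Lyz2 and 5 of Clec4a2. Clec4a1 was found in 4 of the 16 cells, Ly75 in 8 and Clec9a in 0, beside 0.453%, 20.7% and 0.894% of all cells kept. Clec4a4 had too few UMIs for a search of genes with a like pattern (18 in the gates, at least 20 asked).

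**Figure D1:**
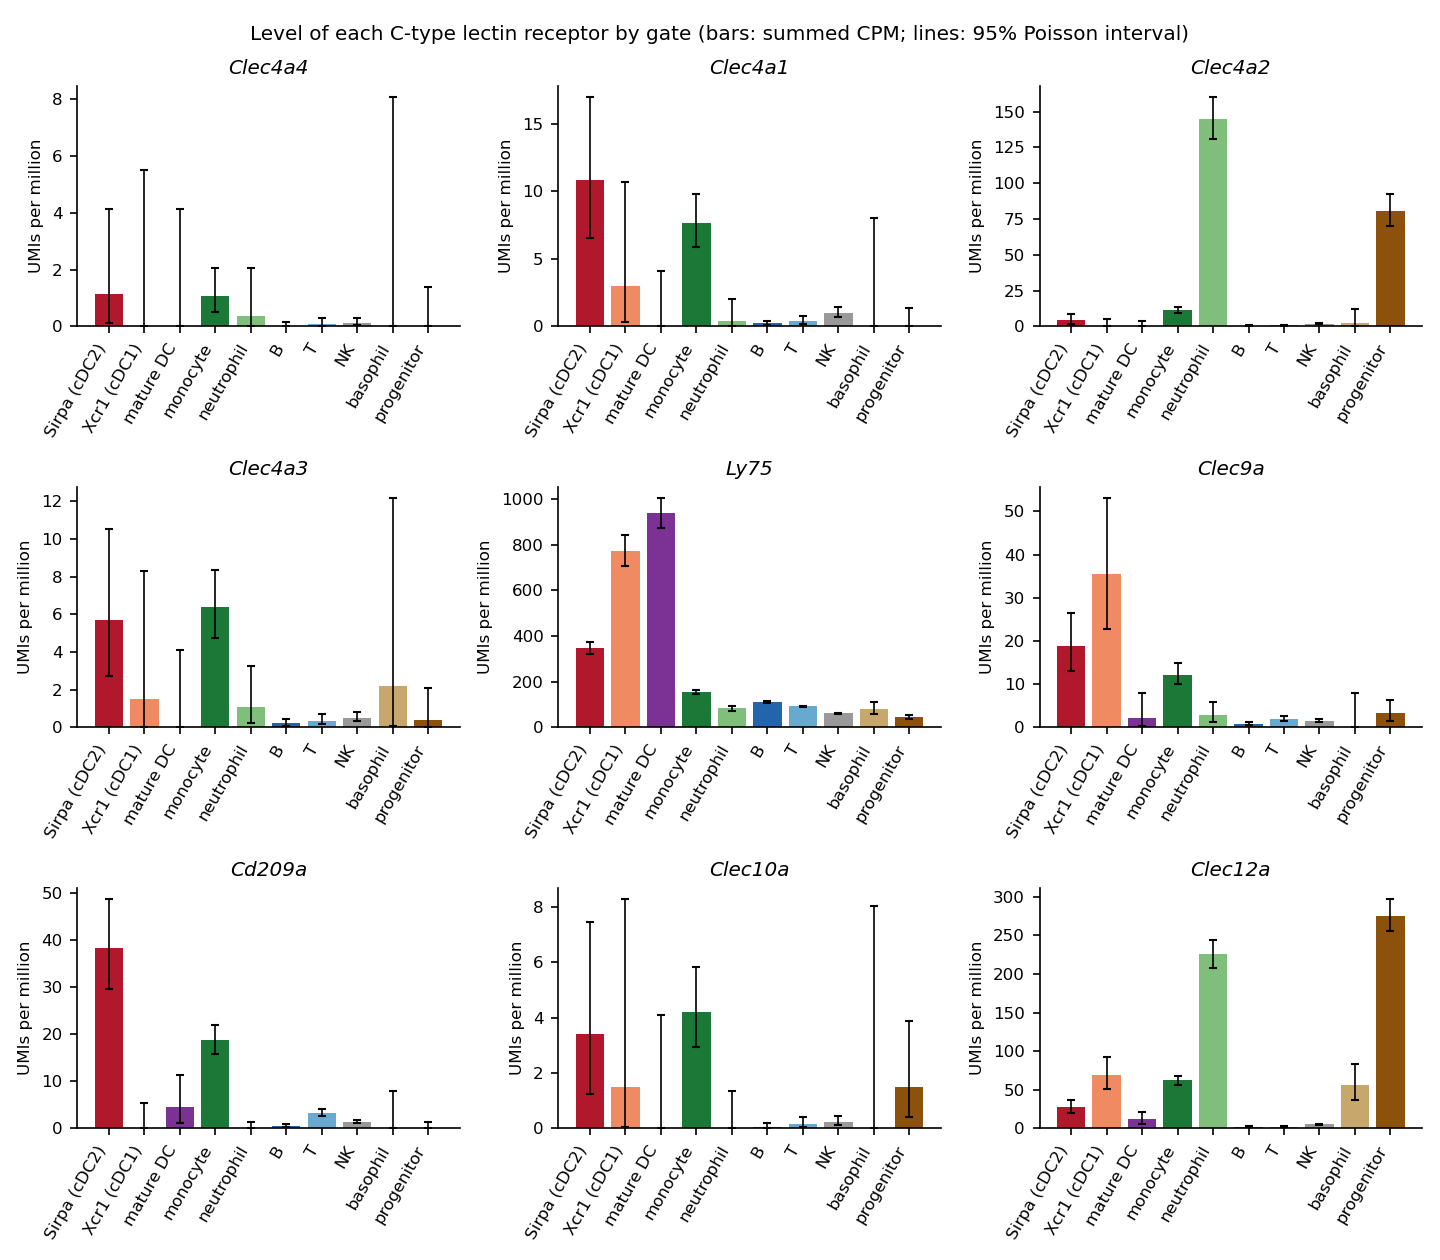
Level of each of the 9 receptor genes (CPM, linear axis from 0, own scale for each gene) in the 10 gates with at least 20 cells, with bars for the summed level and lines for the exact Poisson 95% interval. Ly75 stands highest in the mature dendritic cell and Xcr1 gates (936 and 773 CPM), Clec4a2 and Clec12a in the neutrophil and progenitor gates, Cd209a in the Sirpa gate, and Clec4a4 reaches 1.14 CPM.

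Clec4a1 (DCIR4) and Clec4a3 (DCIR3), the relatives before Clec4a4 in the row, were low and, among the gates of at least 20 cells, were highest in the Sirpa and monocyte gates. In the 7 macrophage gate cells, Clec4a3 had 2 UMIs or 10.7 CPM (1.29 to 38.5). Clec4a1 reached 10.9 CPM (6.54 to 17.0) in the Sirpa gate and 7.69 CPM (5.92 to 9.82) in the monocyte gate. The Xcr1 gate had 2.97 CPM from 2 UMIs of 1 cell, the mature gate 0, and the neutrophil gate 0.370 CPM. Clec4a3 reached 6.37 CPM (4.77 to 8.33) in the monocyte gate and 5.71 CPM (2.74 to 10.5) in the Sirpa gate, with 0.223 CPM in the B gate. For both genes the intervals of the Sirpa and monocyte gates overlapped. Without lymphocyte gene UMIs Clec4a1 was at 6.61 CPM in the Sirpa gate and 8.68 CPM in the Xcr1 gate, from 3 and 2 UMIs, so that its order between them turned. Clec4a3 was then at 4.41 CPM in the Sirpa gate, and at 10.7 CPM in the monocyte gate. Both genes shared 11 cells, which was 14.9% of the 74 cells with Clec4a1 and 17.5% of the 63 with Clec4a3.

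Clec4a2 (DCIR1), the last of the row and an ITIM receptor like DCIR2, went another way. It was highest in the neutrophil gate at 145 CPM (131 to 160) (152 without lymphocyte gene UMIs) and in 56.5% (48.5 to 64.3) of its cells, with a median of 12761 UMIs per cell, against 0.356% of B gate cells at a median of 10431. The progenitor gate (81 cells, Mpo and Elane), which shares 37 cells with the neutrophil gate, followed at 80.7 CPM (70.2 to 92.3). The monocyte gate was at 11.4 CPM (20.5 without lymphocyte gene UMIs) and the Sirpa gate at 4.57 CPM, and the Xcr1 and mature gates had no UMI. Of 557 UMIs in all, 391 were in neutrophil gate cells. The 4 hashtags gave 118, 165, 122 and 188 CPM in the neutrophil gate, in the order 9 to 12, and every hashtag of this gate lay above every hashtag of the monocyte gate (3.22 to 26.7 CPM).

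Clec12a, an inhibitory receptor of myeloid cells (MICL), had the same pair of gates in front. It reached 275 CPM (256 to 296) in the progenitor gate, in 81.5% (71.3 to 89.2) of cells, and 226 CPM (208 to 244) in the neutrophil gate, in 52.2% (44.2 to 60.1). The intervals of both did not overlap, but the gates share cells. With cells of 1 gate only the neutrophil gate was at 140 CPM, as a mean over cells at 148 and after thinning to 1000 UMIs at 152 CPM. Without lymphocyte gene UMIs it was at 241 and the progenitor gate at 299 CPM. Smaller levels were found in the Xcr1 gate with 69.8 CPM (51.3 to 92.8), in the monocyte gate with 62.1 (56.9 to 67.7; 107 without lymphocyte gene UMIs), in the Sirpa gate with 27.4 (20.2 to 36.4) and in the mature gate with 12.3 (6.13 to 22.0). The B and T gates had 2.15 and 2.55 CPM, with a UMI in 1.39% and 1.51% of cells. The plasmacytoid gate (18 cells) had 145 CPM. By hashtag the neutrophil gate ranged from 122 to 294 CPM, lowest in hashtag 11, and the progenitor gate from 198 to 327 CPM, again lowest in hashtag 11. Clec12a and Clec4a2 were found together in 102 cells, 58.0% of the cells with Clec4a2 and 25.4% of those with Clec12a.

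The promoters of Clec4a2 and Clec12a are shown because both genes were highest in the neutrophil and progenitor gates, and that of Clec4a1 because it was scarce in both. The letters are RefSeq promoters of GRCm38.p6 (chr6:123122440-123122739, chr6:129349994-129350293 and chr6:122921598-122921897, all plus strand), running from 250 bases before to 50 after the start. Capitals mark letters searched on both strands: GAGGAA, the core of a PU.1 site, and TTGCNNAA, the form of a C/EBP site.
Clec4a2: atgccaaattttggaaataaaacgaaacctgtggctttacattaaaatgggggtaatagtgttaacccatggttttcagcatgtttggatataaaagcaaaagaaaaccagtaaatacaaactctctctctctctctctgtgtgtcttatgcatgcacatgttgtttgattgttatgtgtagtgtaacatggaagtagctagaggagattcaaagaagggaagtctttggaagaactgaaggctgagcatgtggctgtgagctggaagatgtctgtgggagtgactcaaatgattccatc
Clec12a: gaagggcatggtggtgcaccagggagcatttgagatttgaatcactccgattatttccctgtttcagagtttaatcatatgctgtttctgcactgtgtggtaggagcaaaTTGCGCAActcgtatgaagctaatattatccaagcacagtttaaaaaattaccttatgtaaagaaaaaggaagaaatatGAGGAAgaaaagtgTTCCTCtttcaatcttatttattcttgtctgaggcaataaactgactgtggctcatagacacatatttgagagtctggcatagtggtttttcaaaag
Clec4a1: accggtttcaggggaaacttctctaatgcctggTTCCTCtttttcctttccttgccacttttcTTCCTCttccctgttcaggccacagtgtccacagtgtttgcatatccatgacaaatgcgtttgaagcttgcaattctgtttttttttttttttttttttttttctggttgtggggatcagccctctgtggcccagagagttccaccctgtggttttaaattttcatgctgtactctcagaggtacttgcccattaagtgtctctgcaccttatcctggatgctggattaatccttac

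Clec12a held GAGGAA at positions -61 to -56 and its reverse TTCCTC at -47 to -42, and TTGCGCAA at -140 to -133, which reads alike on both strands. Clec4a1 held TTCCTC at -217 to -212 and at -187 to -182, and the entry of Clec4a2 neither motif. The entries of Clec4a2 and Clec12a lie inside the GENCODE spans of these genes (chr6:123106428-123143999 and chr6:129342691-129365303), downstream of their first annotated base. Letters before that base were not searched. GAGGAA was in 28.3% and TTGCNNAA in 10.8% of 32851 promoters of the same length, and in 3 and 2 of the 8 receptor genes with an entry (first entry of each gene). A motif of the IRF type was in 3.44% of all promoters and in 0 of the 8. A match is only a run of letters, and no binding was measured here. No entry was found for Clec4a4 and Clec10a.

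Ly75 was by far the most abundant of the set, with 12482 UMIs in 3373 cells. CD205, its product, is a large endocytic receptor known from cDC1 and from dendritic cells after maturation. The mature dendritic cell gate stood first at 936 CPM (874 to 1002), with a UMI in 84.6% (73.5 to 92.4) of cells, and the Xcr1 gate second at 773 CPM (708 to 843), in 61.9% (45.6 to 76.4). The Sirpa gate had 347 CPM (320 to 375), in 53.7% (43.2 to 64.0), the monocyte gate 155 CPM (147 to 164) and the neutrophil gate 83.3 CPM (72.8 to 95). The intervals of these 5 levels did not overlap. With each cell thinned to 1000 UMIs, 56.9% (44.0 to 69.2) of mature gate cells, 31.0% (17.6 to 47.1) of Xcr1 gate cells and 22.1% (14.2 to 31.8) of Sirpa gate cells still held a Ly75 UMI, against 6.84% (5.93 to 7.83) in the B gate, and no cell of these gates was too shallow. Among gates of at least 20 cells, the mature gate stayed first under all 17 ways of choosing cells that were run. With 1 UMI more in each gate the Xcr1 gate, then of 11 cells and so not ranked, was at 1100 CPM. The mature gate was at 988 CPM in that setting. Both dendritic cell levels were higher in cells without lymphocyte gene UMIs, at 1319 CPM in the mature gate and 968 CPM in the Xcr1 gate.

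Lymphocytes held much of the Ly75 RNA. The B gate reached 111 CPM (108 to 115) and a UMI in 32.5% (30.7 to 34.2) of cells, and the T gate 92.1 CPM (88.4 to 96.0) in 33.8% (31.6 to 36.0), at medians of 10431 and 10474 UMIs. The B gate alone, with 2809 cells, held 31.9% of all Ly75 UMIs, and the NK gate, with 5238 cells, held 18.6%. Of the 136380387 UMIs of all genes in the cells kept, these gates held 35799304 and 37794709, so such shares largely follow the amount sequenced. The NK gate had 61.4 CPM. Over all cells kept the Ly75 level was 91.5 CPM (89.9 to 93.1), and in cells of no gate 83.8 CPM (80.8 to 86.8). The T gate thus stood near the level of the whole pool and the NK gate below it. In 7 macrophage gate cells no Ly75 UMI was found among 187765, which allows up to 19.6 CPM. All of these levels are counts in stimulated cells. The plasmacytoid gate had 240 CPM, but 71 of its 76 UMIs were in 1 cell, without which it fell to 19.6 CPM.

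The hashtags differed in Ly75. In the order 9 to 12, the mature gate had 767, 1066, 1210 and 1853 CPM, from 14, 9, 9 and 5 cells. The Xcr1 gate had 756, 307, 1045 and 1337 CPM, from 6, 12, 11 and 2 cells, and the Sirpa gate 361, 426, 136 and 217 CPM, from 23, 13, 13 and 9 cells. The mature and Sirpa gates did not overlap over hashtags, but the Xcr1 and Sirpa gates did, because hashtag 10 was lower in the Xcr1 gate than in the Sirpa gate. In the B gate, with 370 to 686 cells a hashtag, the levels were 89.6, 155, 32.8 and 131 CPM, and hashtag 11 was lowest with an interval of 28.3 to 37.8 CPM. Which samples these hashtags mark is not known here, and cells of 1 hashtag are not replicates.

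**Figure D2:**
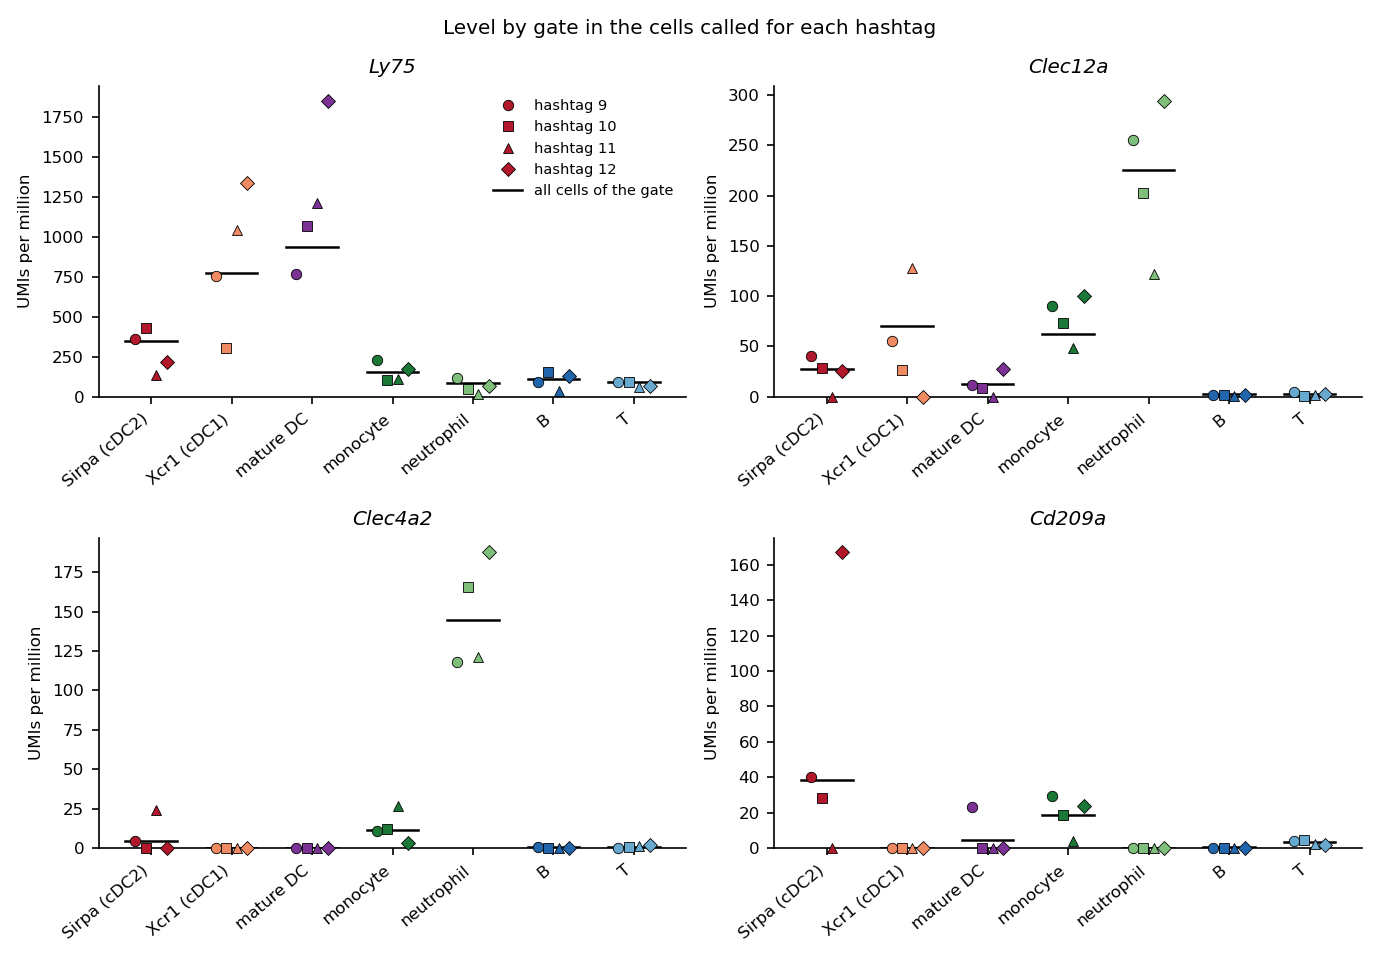
Level of Ly75, Clec12a, Clec4a2 and Cd209a (CPM, linear axes from 0) in the 7 gates of the rule for cells called for each of the 4 hashtags (symbols), with a line for all cells of the gate. Ly75 of the Xcr1 gate spreads from 307 to 1337 CPM, and Clec4a2 of the neutrophil gate from 118 to 188 CPM.

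The fusion proteins of the study were aimed at cDC2 through DCIR2 and at cDC1 through CD205. RNA levels were compared between the Sirpa and Xcr1 gates, neither of which is taken as a pure class of these cells. The counts are of RNA in stimulated cells of day 80. Receptor protein, to which the fusion proteins bind, was not measured here. Ly75 was 2.29-fold (2.02 to 2.60) higher in the Xcr1 gate than in the Sirpa gate, 464 UMIs in 41 cells against 550 UMIs in 94, after 1 cell of both gates was left out. The ratio stayed above 1 in all the alternative settings that were run, with values between 1.63 and 3.22. None of these settings took the cells of a single hashtag. Within hashtag 10 the Xcr1 gate was lower, at 307 CPM from 12 cells, against 426 CPM from 13 in the Sirpa gate. For Clec4a4 the same comparison rested on 0 and 2 UMIs and gave no direction.

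**Figure D3:**
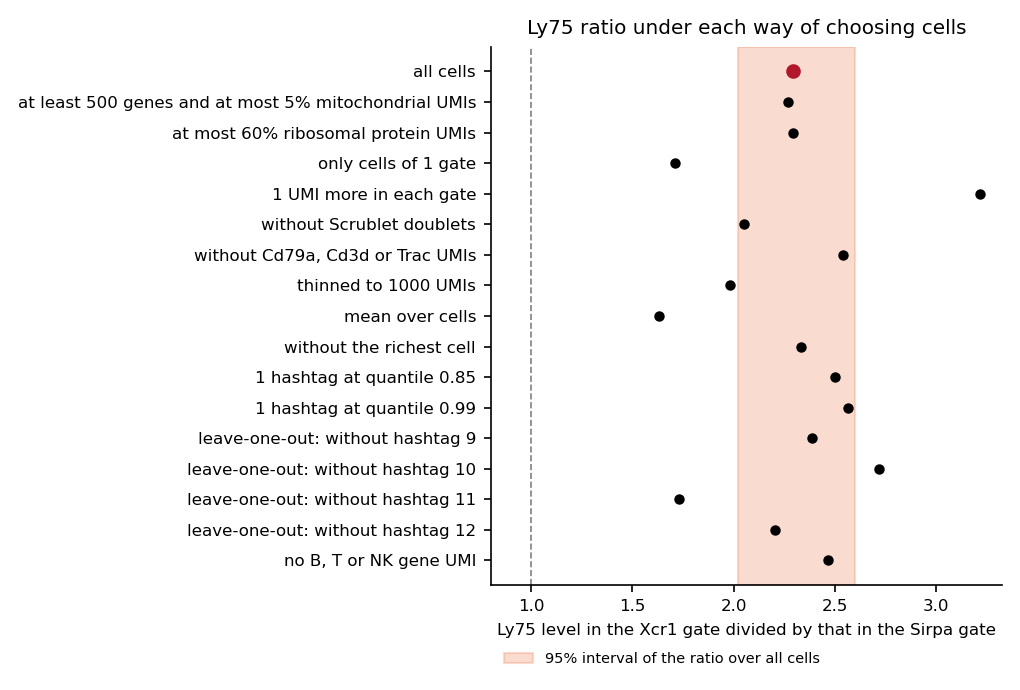
Ratio of the Ly75 level in the Xcr1 gate to that in the Sirpa gate (linear axis) over all cells and under 16 other ways of choosing cells, with the 95% interval of the first ratio shaded and a dashed line at 1. The points lie between 1.63 (mean over cells) and 3.22 (1 UMI more in each gate), and none reaches 1. Cells of a single hashtag are not among the settings shown.

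Among the 9 genes, 5 had at least 20 UMIs over the Sirpa and Xcr1 gates. Clec4a1 and Cd209a were at least 2-fold higher in the Sirpa gate, where 7.72% of 8068 genes were. Ly75 and Clec12a were at least 2-fold higher in the Xcr1 gate, where 4.1% were, and Clec9a was 1.85-fold (0.974 to 3.42) higher there. The ratio of Clec4a1 was 3.49 with an interval of 0.843 to 30.9, and that of Clec12a 2.66 (1.71 to 4.12). The median log2 ratio of the 5 genes, Sirpa to Xcr1 gate, was -0.88, against 0.01 over all genes compared. Without the cells of hashtag 11 the Ly75 ratio was 1.73 and 0 genes passed 2-fold in the Xcr1 direction. With cells of 1 gate only, Clec12a alone passed, and without B, T or NK gene UMIs Cd209a was the only gene that passed in the Sirpa direction.

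Clec9a (DNGR-1), which binds actin filaments of dead cells and is known from cDC1 and plasmacytoid cells, was low. It reached 72.6 CPM (46.0 to 109) in the plasmacytoid gate of 18 cells, 12 of which had a UMI. The Xcr1 gate had 35.6 CPM (22.8 to 53.0), the Sirpa gate 18.9 CPM (13 to 26.5) and the monocyte gate 12.3 CPM (9.99 to 14.9). The intervals of the Xcr1 and Sirpa gates overlapped, and their order turned in several settings. It was 36.2 against 46.4 CPM with cells of 1 gate only, 23.8 (from 1 UMI) against 73.7 CPM after thinning, and 39.1 against 41.9 CPM without lymphocyte gene UMIs. Only 12 of the 42 Xcr1 gate cells held a Clec9a UMI (28.6%, 15.7 to 44.6). The mature gate was at 2.23 CPM and the B gate at 0.810 CPM. Of the 146 cells with Clec9a, 94 also held Ly75 (64.4%) and 78 Clec12a (53.4%), beside 20.7% and 2.46% of all cells kept. Medians were 16831.5 and 6474 UMIs.

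Cd209a, a mouse relative of the human receptor DC-SIGN, was found in 70 cells, 30 of them with 1 UMI and the richest with 20. The Sirpa gate had 38.3 CPM (29.7 to 48.6) in 15.8% (9.12 to 24.7) of cells, and the monocyte gate 18.7 CPM (15.9 to 21.9) in 6.18%. No UMI was found in the Xcr1 gate (up to 5.48 CPM) or in the neutrophil gate (up to 1.37 CPM), and the mature gate had 4.46 CPM from 4 UMIs. Against the floor of 3 counts, the level was at least 8.21-fold higher in the Sirpa gate than in the Xcr1 gate. This fold includes the cells that also passed the monocyte gate, which held most of the Cd209a UMIs of the Sirpa gate, as given below. In the Sirpa gate cells without lymphocyte gene UMIs it was 104 CPM (76.1 to 138), 11 of 40 cells. With 1 UMI more asked in each gate (26 cells) it was 3.14 CPM, and the monocyte gate was then highest. By hashtag this gate had 40.1, 28.1, 0 and 167 CPM, so that hashtag 11 held none in 13 cells. The T gate had 3.32 CPM, with 82 UMIs in 14 of 1849 cells. Of all 70 cells with Cd209a, 66 held H2-Aa (94.3%) and 46 Itgax (65.7%), beside 48.6% and 12.9% of all cells kept. Medians were 13765 and 6474 UMIs.

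Within the Sirpa gate, the 15 cells with Cd209a differed from the 80 without in other receptors. The Sirpa gate shares 41 cells with the monocyte gate, and most of its Cd209a UMIs were in those cells, as given below. Ly75 was at 153 CPM (111 to 206) with Cd209a and 384 CPM (353 to 417) without. Clec12a was at 3.56 CPM (0.0902 to 19.9), from 1 UMI, and 32.0 CPM (23.5 to 42.5). Clec4a1 was at 21.4 CPM (7.85 to 46.5) and 8.85 CPM (4.71 to 15.1), with overlapping intervals. Median depths were close, at 15627 and 15202 UMIs. Of genes that mark subsets of cDC2, Ccr2 was at 99.8 CPM (66.3 to 144) with Cd209a against 51.7 (40.7 to 64.7) without. Tbx21 was at 53.4 (29.9 to 88.2) against 107 (90.8 to 125). It is also a lymphocyte gene, at 186 CPM in the B gate, 95.8 in the T gate and 78.8 in the NK gate. Csf1r, a gene of the monocyte gate, was at 32.1 (14.7 to 60.9) against 17.7 (11.6 to 25.9). Cx3cr1 was at 24.9 (10.0 to 51.4) against 9.53 (5.21 to 16.0), and for both the intervals overlapped. Esam, Dtx1, Cd4 and Mgl2 had at most 4 UMIs on either side. The monocyte gene Lyz2 was at 506 CPM (426 to 596) against 308 (280 to 337), but Ly6c2, another, was at 39.2 (19.6 to 70.1) against 83.0 (68.9 to 99.1). The dendritic cell gene Flt3 was at 3.56 CPM, from 1 UMI, against 31.3 (22.9 to 41.7). The split was made after the levels had been seen and is a description.

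In the monocyte gate the split by Clec12a went along with Lyz2, Ly6c2 and Ccr2 of the monocyte list, but not with Cx3cr1. Ace, F13a1, Cd300e and Treml4 of that list were not looked at in this split. Lyz2 and Ly6c2 were also at least 2-fold above the other cells in the neutrophil and progenitor gates, where Clec12a was highest. The monocyte gate shares 26 cells with the progenitor gate and 11 with the neutrophil gate. What part these cells had in the split was not tested. The 130 cells with Clec12a had 1688 CPM of Lyz2 and 696 CPM of Ly6c2, against 613 and 105 CPM in the 485 without, at medians of 16195 and 9649 UMIs. Ccr2 was at 78.7 CPM with Clec12a and 52.98 CPM without. Cx3cr1 was at 11.8 CPM with Clec12a and 13.9 CPM without, with overlapping intervals. Clec4a2 was at 20.6 CPM (15.6 to 26.7) with Clec12a and 6.96 (4.95 to 9.51) without, Clec9a at 26.8 (21.0 to 33.7) and 5.17 (3.46 to 7.43). Cd209a was the other way round, at 9.56 CPM (6.24 to 14.0) with Clec12a and 23.2 (19.4 to 27.5) without. So was Tbx21, at 29.4 CPM (23.3 to 36.6) and 103 (94.7 to 112). Deeper cells are more likely to hold a UMI of any gene, and the part of depth in these differences was not tested.

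Clec10a (MGL1), a receptor for galactose and N-acetylgalactosamine, was rare, with 54 UMIs in 39 cells. The monocyte gate had 4.20 CPM (2.93 to 5.85) and the Sirpa gate 3.43 CPM (1.26 to 7.46), and their order could not be read. No UMI was found in the mature and neutrophil gates. Of the 39 cells, 31 held H2-Aa (79.5%), 28 Lyz2 (71.8%) and 16 Clec12a (41.0%), beside 48.6%, 5.42% and 2.46% of all cells kept. Medians were 14430 and 6474 UMIs. Without lymphocyte gene UMIs the levels of Clec10a were 8.10 CPM in the monocyte gate and 8.82 CPM in the Sirpa gate.

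**Figure D4:**
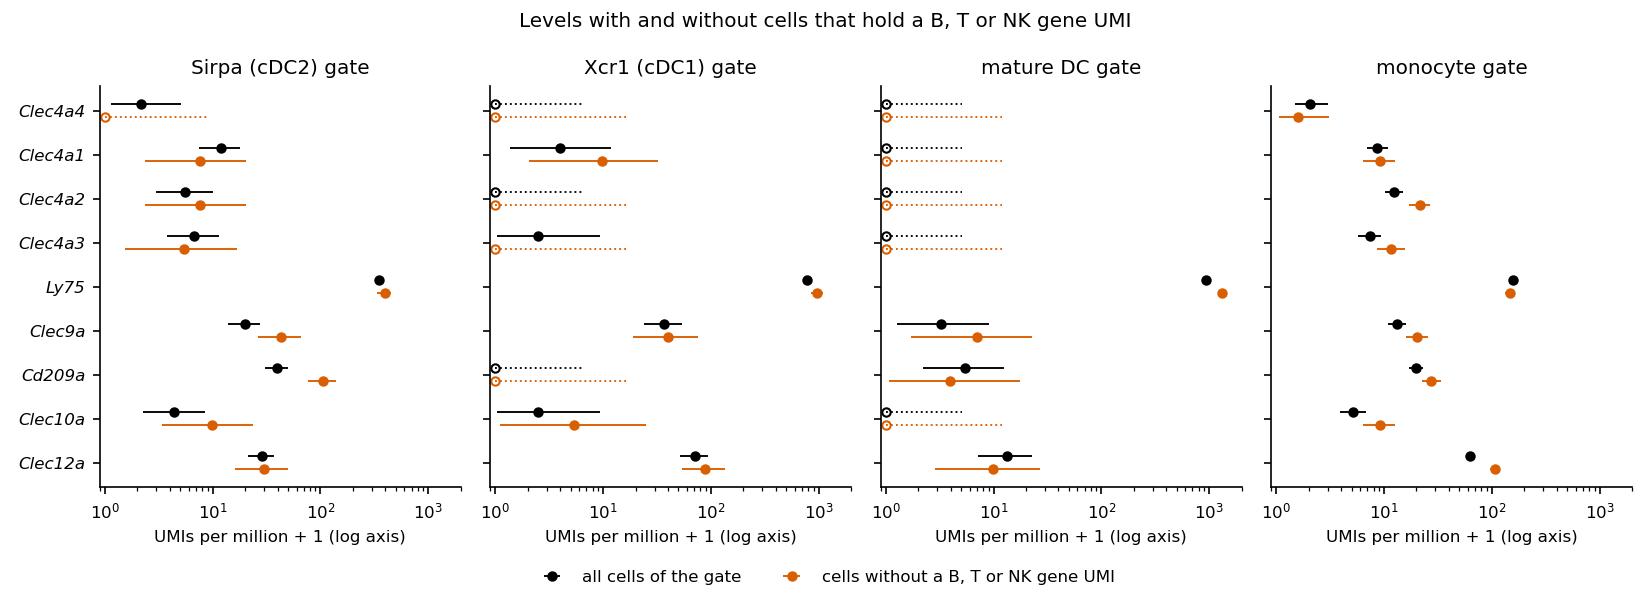
Level of the 9 receptor genes (CPM plus 1, log axis) in 4 gates over all cells (black) and over cells without a UMI of 6 B, T or NK cell genes (orange), with exact Poisson 95% intervals and open circles with dotted lines for 0 UMIs and their upper limit. Clec4a4 of the Sirpa gate goes from 1.14 CPM to 0, whereas Cd209a goes from 38.3 to 104 CPM.

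Between other gates the members moved in both directions. Against the Sirpa gate, the mature gate had Ly75 3.15-fold (2.80 to 3.54) higher, 717 against 485 UMIs, in a comparison where 6.69% of 8073 genes were at least 2-fold higher. Clec9a, Cd209a and Clec12a were at least 2-fold lower there, the remainder of the 4 genes with enough UMIs, as were 9.62% of all genes. Cd209a was 10.3-fold (3.38 to 51.4) lower and Clec9a 7.75-fold (1.98 to 66.6) lower, each from 2 or 3 UMIs in the mature gate. The 4 Clec4a genes and Clec10a had no UMI in the mature gate at all.

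Against the monocyte gate, the Sirpa gate had Ly75 3.14-fold (2.79 to 3.52) higher, and 5.39% of 10910 genes passed 2-fold in that direction. Clec4a2 and Clec12a were at least 2-fold lower, 2 of the 8 genes compared, and 11.3% of all genes were. In this comparison the 41 cells of both gates were left out, and Cd209a then stood at 12.5 and 13.4 CPM. Of the 67 Cd209a UMIs of the whole Sirpa gate, 11 were in cells outside the monocyte gate.

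From monocyte to neutrophil gate, 8 of the 9 genes were compared. Clec4a1, Clec4a3, Clec9a, Cd209a and Clec10a were at least 2-fold higher in the monocyte gate, as were 25.9% of 11539 genes, and Clec4a2 and Clec12a in the neutrophil gate, as were 14.6%. Clec4a2 was 14.4-fold (11.4 to 18.4) higher in the neutrophil gate and Clec12a 3.96-fold (3.49 to 4.49). In the other direction Cd209a, with no UMI in the neutrophil gate, was at least 15.8-fold higher in the monocyte gate, and Clec4a3 15.4-fold (2.65 to 622), from 51 UMIs against 1. Ly75 was 1.97-fold higher in the monocyte gate. The median log2 ratio of the 8 genes, monocyte to neutrophil gate, was 1.89, against 0.33 over all genes compared.

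Other lectin receptors of the same families were looked at beside the set. Of 22 such genes, 7 had enough UMIs in the Sirpa and Xcr1 gates, and 6 of them were at least 2-fold higher in the Sirpa gate, beside the 7.72% of all genes, and 0 in the Xcr1 gate, beside 4.1%. They were Mrc1 (the mannose receptor), Clec5a, Clec4n (dectin-2), Clec4e (Mincle), Clec4d and Olr1, with Clec4n at 75.2 against 12.8 CPM. Clec4e was also at 406 CPM in the neutrophil and 151 CPM in the monocyte gate. In Sirpa gate cells outside the monocyte gate, Clec5a was at 3.42 CPM (18.8 with those cells), Clec4e at 28.5 (69.3), Clec4d at 108 (192) and Clec4n at 42.2 (75.2), while Mrc1 was at 47.9 CPM (42.3). The activating receptors signal through Fcer1g or Tyrobp and the kinase Syk. Of 9 genes of that route 8 were compared, and Syk was 2.02-fold (1.56 to 2.66) higher in the Sirpa gate, the others less than 2-fold. The phosphatases that bind ITIM receptors, Ptpn6, Ptpn11 and Inpp5d, differed by less than 2-fold, Ptpn6 with 76.9 against 54.3 CPM. In the neutrophil gate, where Clec4a2 was highest and Clec12a second to the progenitor gate, Ptpn6 was at 299 CPM, against 99.3 CPM in the monocyte gate.

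Genes with the most similar levels over the 12 gates were searched among 13885 genes by Pearson correlation of the log2 level. The gates share cells, and the 12 points are not replicates. Ly75 was nearest to Gm9958 (r = 0.98), Bcl9 (0.97) and Bcl2a1a (0.96), all highest in the mature gate. Clec12a was nearest to Pstpip2 (0.98), Lamtor3 (0.95) and Rsu1 (0.95), and Clec4a2 to Tcn2 (0.96), Scp2 (0.95) and Alas1 (0.95). Clec4a1 was nearest to Ms4a6d (0.91) and Cd209a to Pgf (0.90). Clec9a was nearest to Zfp467 (0.95), Clec4a3 to Morrbid (0.92) and Clec10a to Daxx (0.96), genes whose highest gates held 18 cells (plasmacytoid) or 7 (macrophage).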

How the data were processed

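Spleen cells of 3 conditions were sequenced together as 1 pool, in an mRNA and a hashtag library that share 16826 barcodes. The authors deposited raw counts of UMIs per gene and hashtag in each barcode, made with Cell Ranger (7.2.0 in the submitters' processing notes, 7.0.0 in the file header) on GRCm38, without normalization. The raw reads were not analysed here. From these counts, cells were kept from 200 genes upwards and up to a mitochondrial share of 10% (median 6474 UMIs, 505 to 98727), and 504 were removed. The genes and lists, among them the 7 gates of the rule, were chosen with earlier results of these data known.

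Gates asked for UMIs of marker genes: Itgax 1, H2-Aa 3 and Sirpa 1 (cDC2), Xcr1 1 (cDC1), Fscn1 or Cacnb3 2 (mature), Csf1r, Ms4a6c or Fcgr1 2 (monocyte), S100a8 or S100a9 20 (neutrophil), Cd79a or Ms4a1 2 (B), Cd3d or Cd3e 2 (T), Ncr1, Klre1 or Klrb1c 2 (NK), Siglech 2 (plasmacytoid), C1qa, C1qb or C1qc 3 (macrophage), Mcpt8 or Prss34 3 (basophil), Mpo or Elane 3 (progenitor), genes joined by "or" being summed. All but the B and T gates also asked for no Cd3e and no Ms4a1 UMI. Scrublet in scanpy 1.11.5, at an expected rate of 0.1, called 8.18% of cells doublets, which were kept, and hashtags were called with HTODemux (Seurat 5.3.0, R 4.3.3, quantile 0.85). Ratios used cells of 1 of the 2 gates only, at least 20 UMIs over both and a floor of 3 counts for 0. Intervals cover counting error at 95%. Named were the 10 genes and, by rule, the 3 genes most like each over the gates (members from 20 UMIs, other genes from 50, log2 of CPM plus 1), of which all or the first are given. The splits of the Sirpa and monocyte gates by Cd209a and Clec12a were chosen after their values were seen. The ratio and interval code was tested on simulated data. Alternatives were a stricter filter, a limit of 60% on ribosomal protein UMIs, stricter gates, removal of cells by gate overlap, lymphocyte genes or doublet call, and of the richest cell. Others were thinning to 1000 UMIs, means over cells, hashtag subsets and other folds and minimums. Leaving out a hashtag removed only the cells called for that hashtag alone, so cells called for 2 or more hashtags stayed in. Python 3.11.15, NumPy 2.4.6, SciPy 1.17.1 and matplotlib 3.10.9 were used.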

Additional observations from a re-analysis of the deposited data

How the results depend on the processing

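Clec4a4 in the Sirpa gate went from 1.14 CPM and 2.11% of cells to 0 with 1 UMI more in each gate, without Scrublet doublets, without cells holding Cd79a, Cd3d or Trac, after thinning to 1000 UMIs, and without B, T or NK gene UMIs, the last chosen after seeing the data. Its 2 UMIs limit any statement. Ly75 in the Xcr1 gate, 773 CPM, was 936 with cells of 1 gate only, 1100 with 1 UMI more, 868 without doublets, 986 without Cd79a, Cd3d or Trac, 610 as a mean over cells, 968 without B, T or NK gene UMIs, and 663 to 868 leaving out each hashtag. Its ratio to the Sirpa gate, 2.29, was 1.71 with cells of 1 gate only, 3.22 with 1 UMI more, 1.98 after thinning, 1.63 as a mean over cells, and 1.73 (without hashtag 11) to 2.72 (without hashtag 10).

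The 2 genes at least 2-fold higher in the Sirpa gate became 0 with cells of 1 gate only, with 1 UMI more and after thinning. The minimum of 20 UMIs over both gates was kept in these settings, so a gene could also drop out for too few UMIs. After thinning Clec4a1 had 1 UMI and Cd209a 5 in the Sirpa gate, with 0 in the Xcr1 gate. Neither could be called then, and this 0 says nothing of their ratios. They became 1, Cd209a, without doublets, without Cd79a, Cd3d or Trac, without B, T or NK gene UMIs, without the richest cell, with cells of 1 hashtag (quantile 0.85 or 0.99), at a fold of 4 and with at least 50 UMIs. They were 4 with at least 5 UMIs, and 1 (without hashtag 9, 10 or 11) to 2 leaving out each hashtag. The 2 genes higher in the Xcr1 gate became 1 with cells of 1 gate only, 0 after thinning, as a mean over cells and at a fold of 4, and 0 (without hashtag 11) to 3 leaving out each hashtag. Clec12a, with 2 UMIs in each of the 2 gates after thinning, could not be called there either, and the Ly75 ratio was then 1.98. What else lay behind these changes was not tested. Among 144 recomputed levels of the 9 genes, each in its highest gate of the rule, 110 stayed within the counting interval, 15 were lower and 19 higher. The limit of 60% on ribosomal protein UMIs removed no cell of these gates, so its levels could not move. The 17 settings counted next include the main setting. The highest gate of at least 20 cells was the one given in all 17 settings for Ly75 and Clec4a2, in 16 for Clec12a and Cd209a, 15 for Clec4a3, 14 for Clec4a1 and Clec10a, 13 for Clec9a and 10 for Clec4a4, which had no UMI in these gates after thinning. The Ly75 ratio did not turn in these settings, although within hashtag 10 alone the Xcr1 gate was below the Sirpa gate. The order of the Xcr1 and Sirpa gates turned for Clec9a (cells of 1 gate only, thinning, no B, T or NK gene UMI) and Clec4a1 (no B, T or NK gene UMI). Cd209a in the Sirpa gate fell to 3.14 CPM with 1 UMI more. Why these moved was not tested. No paired analysis was possible because the pool is 1 sample, whose 2 libraries share a replicate number.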
